A study of Mus musculus with 6 samples.

Results

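The genes described here are 38 genes of motile cilia and of the oviduct epithelium, read in primary tumors from wild-type (WT) mice and from mice that lack Tgm2, the gene of transglutaminase 2. They were taken from a fixed list of gene names, and all 38 were present among the 20076 genes of the deposited expression table and entered the test, which covered 19667 genes. Of the 38, 37 belong to the ciliated cell and 1, Ovgp1, belongs to the secretory cell of the oviduct.

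Both groups carried the same cancer cells: ID8, a mouse ovarian surface epithelial line, with Trp53 and Brca1 both knocked out, was placed in the bursa around the ovary of each host. Bulk polyA-selected RNA was sequenced from 3 tumors grown in WT hosts and 3 grown in Tgm2-/- hosts, all taken at 6 weeks after implantation. Host mice were on the C57BL/6 background, and only the host differed by genotype. The sources used here state neither the strand of the libraries nor whether oviduct, ovary or uterus was trimmed from the tumors, and the tumors are numbered without being tied to separate mice, so the p-values measure the spread between these samples, which may be technical. Values are normalized counts, that is gene-level read estimates divided by a size factor for each tumor, and they summed to between 32316613 and 37717165 per tumor. Because the tissue was bulk, more cells of a type and more RNA per cell cannot be told apart. The labelled cell type, cancer cells, covers only part of what the tumors held, since markers of fat, leukocytes, oocytes and tract epithelium were all measured in them.

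A motile cilium beats because rows of dynein motors slide the microtubule doublets of its core, the axoneme, against each other. Radial spokes, a central pair of microtubules and the nexin links between doublets turn this sliding into bending, and tektins and other inner proteins stiffen the doublets. Multicilin (Mcidas), Foxj1 and the RFX factors switch on this program in multiciliated cells. In the oviduct, ciliated cells lie beside secretory cells that make oviductin (Ovgp1), and together they move and bathe the egg and early embryo. Neither the ovarian surface epithelium nor cells cultured from it are known for dense motile cilia, although most cells can build a single primary cilium, which does not beat.

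The 38 genes were mostly high in Tgm2-/- tumors 1 and 2 and low in Tgm2-/- tumor 3. Their mean level, Ovgp1 included, on the log2(value + 1) scale stood at 3.75, 5.44 and 4.65 for WT tumors 1 to 3 and at 7.40, 7.59 and 3.62 for Tgm2-/- tumors 1 to 3, the order in which all values below are given. The highest 2 values of the 6 were those of Tgm2-/- tumors 1 and 2 for 29 of the 38 genes (76.3%), against 5.86% of all genes tested. In Tgm2-/- tumor 3, 35 of the 38 genes were lower than in both other Tgm2-/- tumors, 37 were within or below the WT range and 13 were below every WT tumor. Between host genotypes 0 of the 38 genes passed the test, where 0.102% of all genes passed as higher and 0% as lower. The groups overlapped for all but 1 gene, while over all genes 5.18% had every Tgm2-/- value above and 5.33% every value below the WT values.

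**Figure D1:**
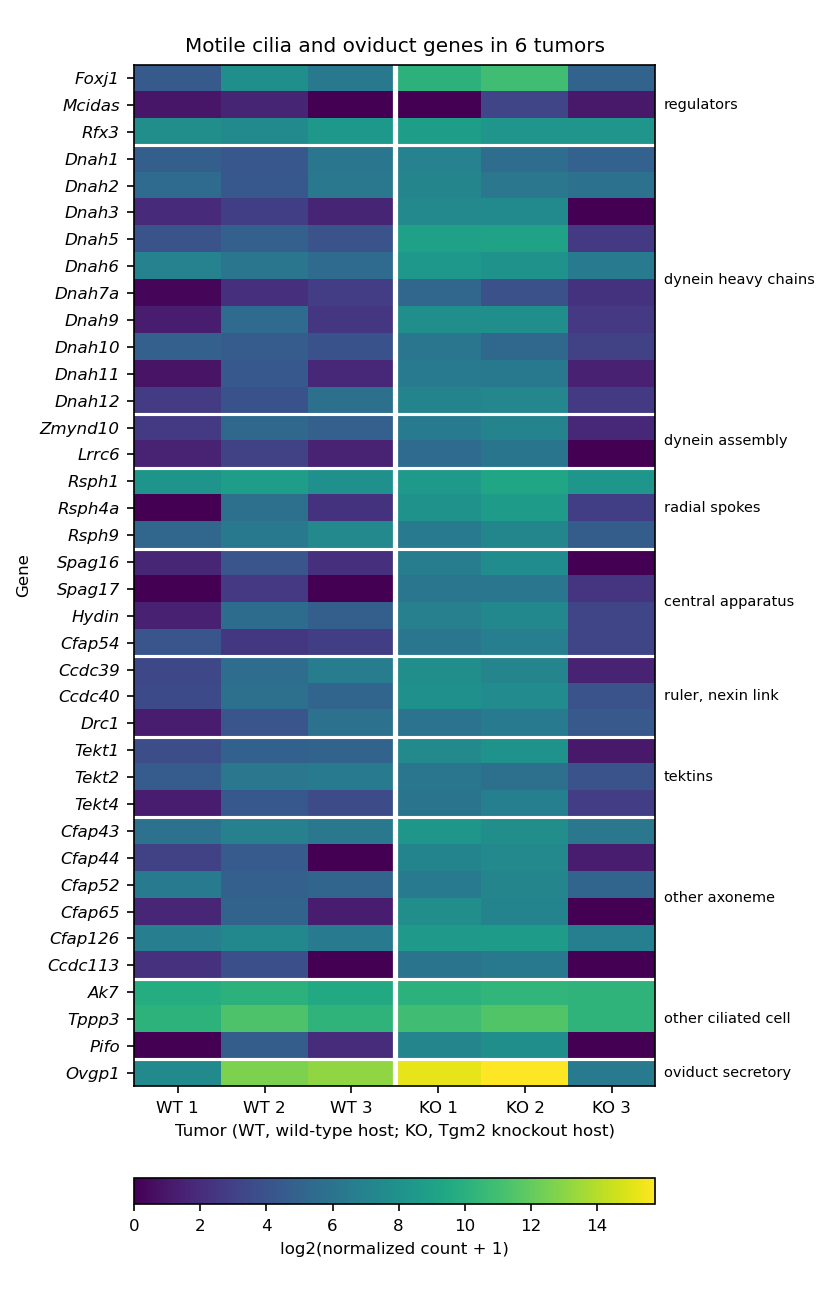
Color gives log2(normalized count + 1) of each of the 38 genes (rows, grouped by role) in each of the 6 tumors (columns, WT left and Tgm2-/- right). Columns KO 1 and KO 2 are the brightest for most rows, while KO 3 is as dark as the WT tumors or darker, and Ak7, Tppp3, Rsph1 and Rfx3 are at a similar level in all columns.

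Several libraries stood apart in ways that bear on these values. Tgm2-/- tumor 1 held the highest value of all 9 measured oocyte genes and of 10 of 12 granulosa and steroid cell genes. WT tumor 3 held the highest value of 13 of 15 general epithelial genes, and WT tumor 1 and Tgm2-/- tumor 3 were the lowest in that list's mean level. Main counts are therefore also given with each tumor left out. The targeted gene matched its labels: Tgm2 was at 14978, 12155 and 13180 in the WT tumors and at 5853, 6071 and 8157 in the Tgm2-/- tumors. All 3 Tgm2-/- values lay below all 3 WT values, with a log2 fold change of -1.02 (SE 0.22), an adjusted p of 0.391 in limma and a two-sided exact permutation p of 0.1, the smallest that 3 against 3 tumors allow. Tgm2 (chr2:158116402-158146436, minus strand, GRCm38) was still read in Tgm2-/- hosts, where the implanted line is not labelled as lacking it. Which cells or which allele these reads came from was not tested.

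Foxj1, the forkhead factor that drives motile cilia genes, was at 20.8, 228 and 83.1 in the WT tumors and at 1135, 1938 and 31.2 in the Tgm2-/- tumors. Tgm2-/- tumors 1 and 2 were above every WT tumor, and Tgm2-/- tumor 3 lay between WT tumors 1 and 3. The group means were 111 ± 106 and 1035 ± 957 (SD, n = 3 each), and the log2 fold change was 2.47 (SE 1.48, 95% interval -0.93 to 5.86, adjusted p = 0.892 in limma). The gene lies at chr11:116330704-116335399 on the minus strand. Mcidas, which acts upstream of Foxj1 in multiciliated cells, was at or near 0 throughout, with a highest value of 8.83 in Tgm2-/- tumor 2. Rfx3, an RFX factor that also serves primary cilia, was read at 184 to 342 in WT and 292 to 433 in Tgm2-/- tumors, and its log2 fold change was 0.48 (SE 0.35).

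Dynein heavy chains carry the motor domains of the outer and inner arms. For 8 of the 10 measured, Tgm2-/- tumors 1 and 2 were both above every WT tumor, where 9.65% of all genes tested were. The median log2 fold change over the 10 was 1.79 (0.41 to 3.01), beside -0.03 over all genes tested. Dnah5, an outer arm motor, was at 15.2, 28.2 and 15.2 in the WT tumors and at 528, 553 and 5.37 in the Tgm2-/- tumors. The first 2 Tgm2-/- values were far above all 3 WT values and the last was the lowest of the 6, which gave a log2 fold change of 2.64 (SE 1.56). Dnah9, the outer arm chain that pairs with Dnah5, was at 1.43, 44.0 and 4.57 in WT and 228, 227 and 5.05 in Tgm2-/- tumors. Dnah11, the other outer arm chain of this kind, was at 0.757, 19.0 and 2.35 in WT and 90.2, 80.8 and 1.72 in Tgm2-/- tumors. Within the WT group both were highest in tumor 2. Among the inner arm chains, Dnah3 was at 2.63, 6.67 and 2.16 in WT and at 173, 186 and 0 in Tgm2-/- tumors. Dnah12 ran from 5.68 to 55.7 in WT and was at 136, 157 and 5.37 in Tgm2-/- tumors. Dnah6 was at 125, 72.2 and 45.7 in WT and 340, 278 and 83.9 in Tgm2-/- tumors, with a log2 fold change of 1.41 (SE 0.63, 95% interval -0.04 to 2.85).

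Dnah1, Dnah2 and Dnah10 had the lowest log2 fold changes of the 10 chains, 0.79 (SE 0.74), 1.08 (SE 0.65) and 0.41 (SE 0.86). Dnah7a reached 35.6 in Tgm2-/- tumor 1 and was at 0.140 to 6.43 in WT, a value that is uncertain because Dnah7a, Dnah7b and Dnah7c are near-identical copies that share reads. Motors are put together in the cytoplasm before they enter the cilium, and both assembly factors measured had their highest values in Tgm2-/- tumor 2 and their lowest in Tgm2-/- tumor 3. Zmynd10 was at 5.42, 38.3 and 28.0 in WT and 91.5, 132 and 2.58 in Tgm2-/- tumors. Lrrc6 was at 1.89, 7.30 and 2.03 in WT and 45.5, 68.7 and 0 in Tgm2-/- tumors.

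The 4 genes of the central apparatus had the highest median log2 fold change of any role with more than 1 gene, 2.15 (1.93 to 4.07). Spag17, a large protein of the central pair, was at 0, 5.22 and 0 in the WT tumors and at 73.0, 73.6 and 4.30 in the Tgm2-/- tumors. Tgm2-/- tumor 3 fell below WT tumor 2, so the groups overlapped. It was the one gene of the 38 with an unadjusted p below 0.05 in limma, with a log2 fold change of 4.07 (SE 1.24) and an adjusted p of 0.682. Its exons overlap those of Wdr3 and Spag17os on the opposite strand, so reads of these genes cannot be told apart without strand. Spag16, a partner of Spag17, was at 2.29, 16.8 and 3.38 in WT and 97.8, 207 and 0 in Tgm2-/- tumors. Hydin, the gene mutated in the mouse hydrocephalus strain hy3, was at 1.73, 46.5 and 26.1 in WT and 118, 164 and 8.83 in Tgm2-/- tumors. Cfap54 was at 16.6, 5.005 and 6.66 in WT and 71.3, 106 and 8.89 in Tgm2-/- tumors, with a log2 fold change of 2.19 (SE 0.98).

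The radial spokes split. Rsph4a, a spoke head gene, was at 0, 55.3 and 4.05 in WT and 276, 411 and 6.45 in Tgm2-/- tumors (log2 fold change 3.85, SE 1.81, adjusted p = 0.881 in limma). Rsph1 was at 237 to 456 in WT and 313 to 655 in Tgm2-/- tumors, a log2 fold change of 0.44 (SE 0.38). Rsph9 was highest in WT tumor 3, at 172, and lowest in Tgm2-/- tumor 3, at 24.3, with a log2 fold change of -0.18 (SE 0.81). Rsph9 and the tektin Tekt2 were the only members with a log2 fold change below 0 and the only ones with their highest value in a WT tumor.

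Among the other tektins, Tekt1 was at 12.2, 28.2 and 31.1 in WT and 183, 269 and 1.09 in Tgm2-/- tumors, and Tekt4 was at 1.34, 19.4 and 11.3 in WT and 66.7, 112 and 6.17 in Tgm2-/- tumors. Tekt2 was at 23.5, 75.5 and 92.4 in WT and 71.8, 55.5 and 15.7 in Tgm2-/- tumors, a log2 fold change of -0.45 (SE 0.78). Tekt2 thus differed from the other tektins in its order of tumors, with WT tumors 2 and 3 on top. Ccdc39 and Ccdc40 form the ruler that spaces the repeats along the doublet, and Drc1 belongs to the nexin link. Ccdc39 was at 9.87, 48.3 and 104 in WT and 219, 142 and 1.89 in Tgm2-/- tumors, while its partner Ccdc40 was at 10.7, 55.3 and 35.0 in WT and 240, 195 and 15.6 in Tgm2-/- tumors. Drc1 was at 1.42, 16.8 and 61.1 in WT and 62.2, 90.9 and 20.01 in Tgm2-/- tumors. For all 3 genes WT tumor 1 was the lowest or next to lowest of the 6.

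The 6 other axoneme genes each had their highest 2 values in Tgm2-/- tumors 1 and 2, where 5.86% of all genes tested did. Their median log2 fold change was 1.62 (0.82 to 2.74). Cfap44 was at 7.35, 21.6 and 0 in WT and 138, 168 and 1.40 in Tgm2-/- tumors, and its partner in the tether of the inner arms, Cfap43, was at 56.8, 116 and 79.3 in WT and 325, 224 and 73.9 in Tgm2-/- tumors. Cfap65 was at 217, 136 and 0 in Tgm2-/- tumors and no higher than 31.5 in WT. Ccdc113 was at 65.5, 81.7 and 0 in Tgm2-/- tumors and no higher than 13.6 in WT. Cfap126 and Cfap52, both found on the doublets, had log2 fold changes of 1.14 (SE 0.56) and 0.82 (SE 0.70).

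Ak7, an adenylate kinase of cilia, was the one gene of the 38 whose groups did not overlap. It was at 887, 1140 and 766 in the WT tumors and at 1146, 1325 and 1244 in the Tgm2-/- tumors. All 3 Tgm2-/- values were above WT tumor 2, but the lowest of them exceeded it by little, and the log2 fold change was 0.43 (SE 0.22, adjusted p = 0.887 in limma). Tppp3, a tubulin-binding protein of ciliated and some other cells, was at 1177, 2619 and 1231 in WT and 1955, 2829 and 1226 in Tgm2-/- tumors, a log2 fold change of 0.28 (SE 0.39). Pifo, a protein of the ciliary base, was at 0, 23.9 and 3.06 in WT and 143, 229 and 0 in Tgm2-/- tumors.

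Per kilobase of the longest coding transcript, the mean level over the 6 tumors was 6952 normalized counts for Ovgp1, 1318 for Tppp3, 350 for Ak7, 324 for Rsph1 and 218 for Foxj1, and at the other end 0.907 for Mcidas and 0.863 for Dnah7a. These means pool tumors that differ widely. On the same scale per length, Ovgp1 was at 70.4 in WT tumor 1 and 34.8 in Tgm2-/- tumor 3, below Tppp3 at 843 and 878, and it was the highest of the 38 genes in the other 4 tumors. Ovgp1 was at 184, 6552 and 9244 in the WT tumors and at 37108, 55944 and 91.0 in the Tgm2-/- tumors. Its highest and lowest values of the 6 thus both came from Tgm2-/- hosts, and its log2 fold change of 1.36 had an SE of 2.42 (95% interval -4.17 to 6.89, adjusted p = 0.948 in limma). The summed level of the 38 genes, 3409, 12325 and 12981 in WT and 47060, 68236 and 3749 in Tgm2-/- tumors, differed between tumors in how much of it was Ovgp1. Without Ovgp1 the sums were 3225, 5774 and 3737 in WT and 9952, 12292 and 3658 in Tgm2-/- tumors, so that it made up little of the sum in WT tumor 1 and Tgm2-/- tumor 3 and the larger part of it in the other 4 tumors, by the least in WT tumor 2. Ovgp1 (chr3:105973711-105987423, plus strand) and Pifo (chr3:105996957-106014646, minus strand) lie 9533 bases apart.

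**Figure D2:**
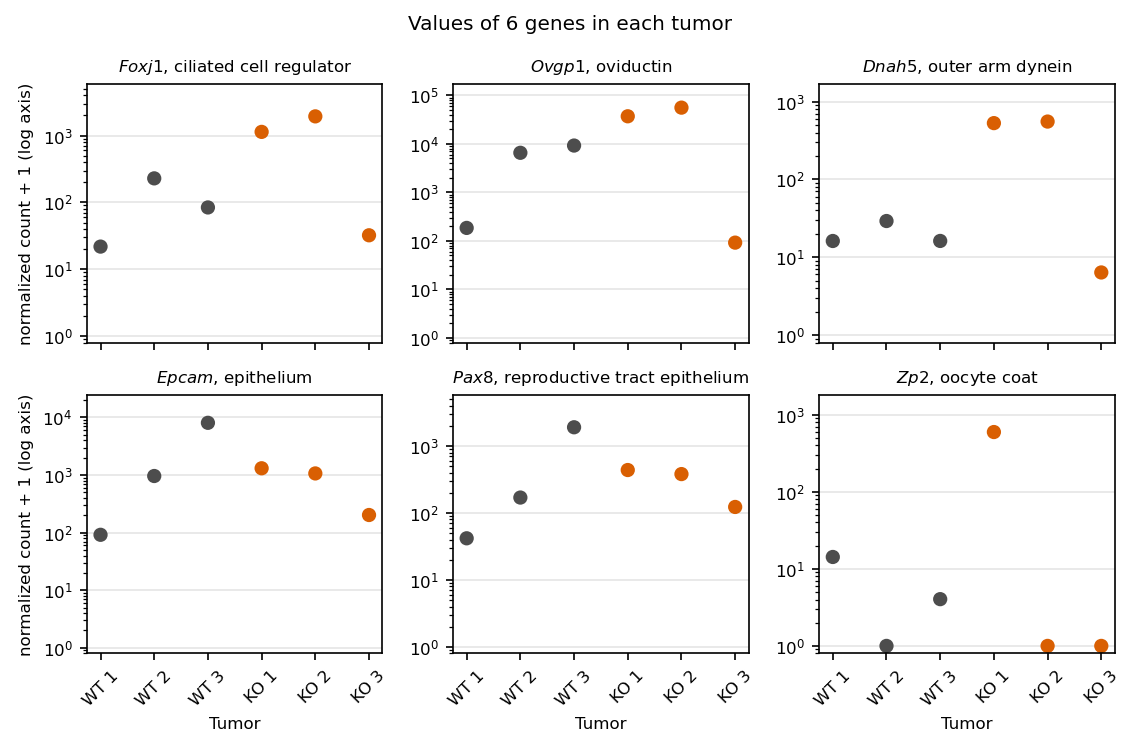
Points give the normalized count + 1 (log axis) of 6 genes in each tumor, WT in grey and Tgm2-/- in orange. Foxj1, Ovgp1 and Dnah5 peak in KO 1 and KO 2, Epcam and Pax8 peak in WT 3, and Zp2 stands at 596 in KO 1 alone.

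Over the 38 genes, the median log2 fold change was 1.60 (-0.45 to 4.07), against -0.03 over all genes tested, and 36 of 38 were above 0, where 47.3% of all genes were. With adjusted p below 0.05 and a log2 fold change beyond 1 in either direction as limits, 0 of 38 passed in limma, while 20 of all genes (0.102%) passed as higher and 0 (0%) as lower in Tgm2-/- tumors. With 1 tumor left out, the count over all genes was 2 without WT tumor 2, 8 without WT tumor 1, 11 without Tgm2-/- tumor 2, 13 without WT tumor 3 or Tgm2-/- tumor 1 and 15 without Tgm2-/- tumor 3. At an unadjusted p below 0.05, 1 member was higher, where 3.4% of all genes were, and 0 were lower, where 2.38% were. In 1 member (2.63%) every Tgm2-/- value exceeded every WT value, against 5.18% of all genes, and in 0 members every value was below, against 5.33%. Over all 6 tumors, neither the share of members called nor the share without overlap exceeded the background, which does not hold for every alternative fit. The 95% interval of the fold change included 0 for 37 of the 38.

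**Figure D3:**
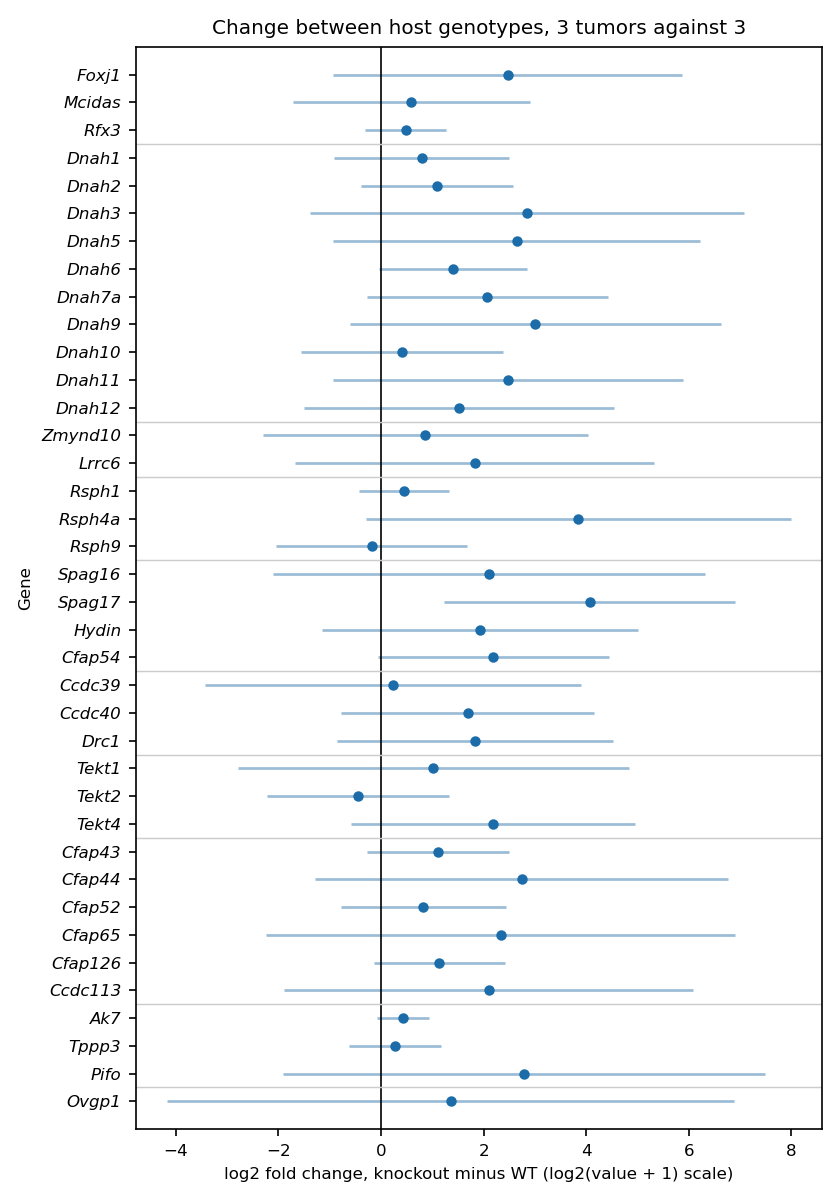
Points give the log2 fold change (Tgm2-/- minus WT, on the log2(value + 1) scale) of each member and bars its 95% interval from limma, with genes in order of role. All but Rsph9 and Tekt2 lie above 0, and the interval of Spag17 alone (1.23 to 6.90) does not include 0.

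For most members the spread among tumors of one genotype was larger than the difference between genotypes. The log2 range among the 3 Tgm2-/- tumors exceeded the size of the fold change for 36 of the 38 genes, and the range among the 3 WT tumors did so for 31, with Dnah5 among the exceptions in WT. The range from the highest to the lowest tumor had a median of 5.24 on the log2 scale over the 38 genes and 1.25 over all genes tested. Among the WT tumors, tumor 2 was the highest for 23 genes, tumor 3 for 11 and tumor 1 for 4. Only 4 members were at 100 or more in every tumor (Rfx3, Rsph1, Ak7 and Tppp3), and 10 were listed at 0 in at least 1 tumor, 6 of them in Tgm2-/- tumor 3.

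The counts depended most on 1 tumor. Without Tgm2-/- tumor 3, the median log2 fold change of the 38 genes was 2.97, 26 had an unadjusted p below 0.05 in limma and were higher, where 3.9% of all genes were, and 30 had every Tgm2-/- value above every WT value, where 9.65% of all genes did. In that fit 1 member, Dnah5, passed the limits, with a log2 fold change of 4.78 and an adjusted p of 0.0462. Without Tgm2-/- tumor 1 or tumor 2 the median was 1.0 or 0.96, and 1 member had an unadjusted p below 0.05 in each fit, where 3.3% and 2.86% of all genes were higher at that p. In each of these 2 fits 1 member had every Tgm2-/- value above every WT value, where 9.63% and 10.6% of all genes did. Without WT tumor 1, 2 or 3, the unadjusted count was 3, 4 and 4, where 4.38%, 2.63% and 2.96% of all genes were. In those fits 4, 6 and 6 members had every Tgm2-/- value above every WT value, where 11.9%, 9.29% and 8.91% of all genes did, and 1 member was below without WT tumor 1, where 13.1% of all genes were. No source used here gives a reason to drop any tumor, so the values over all 6 stand as the result.

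**Figure D4:**
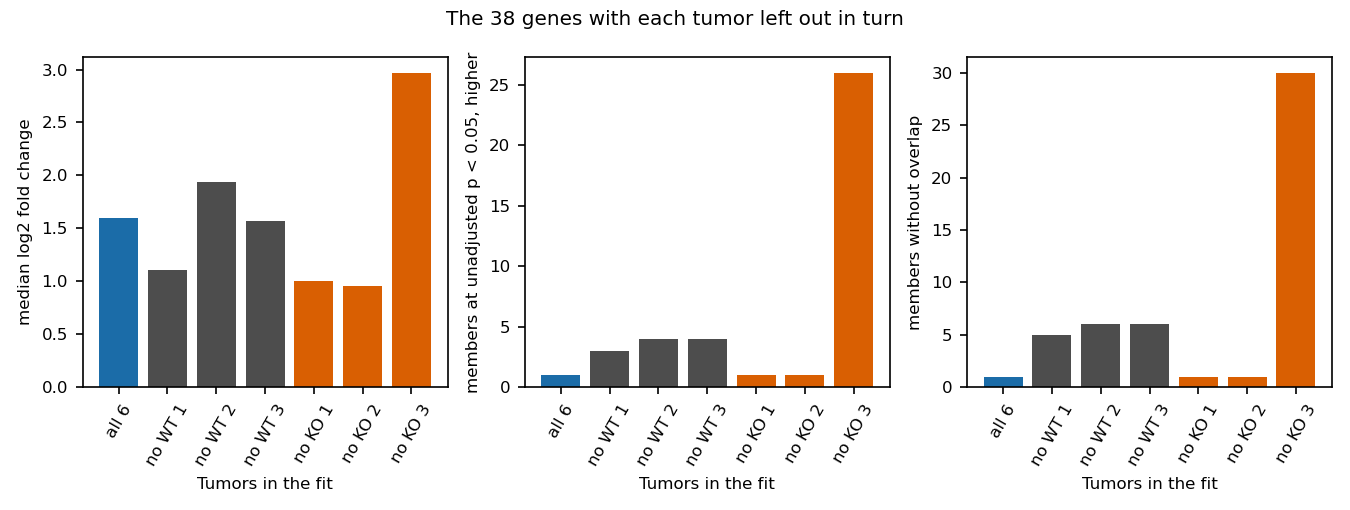
Bars give, for all 6 tumors (blue) and with each tumor left out in turn (grey for a WT tumor, orange for a Tgm2-/- tumor), the median log2 fold change of the 38 genes, the number with an unadjusted p below 0.05 and higher in Tgm2-/- tumors, and the number without overlap. The bar without KO 3 is the tallest in each panel, at 2.97, 26 and 30.

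The same order of tumors was seen in the mean level of motile cilia genes outside the 38, a list also chosen with earlier results known. Of 99 such genes in the table, 98 were tested, 0 passed the limits, and at an unadjusted p below 0.05 in limma 11 were higher and 0 lower, with a median log2 fold change of 0.83 (-1.20 to 4.50), where 3.4% of all genes were higher. Without Tgm2-/- tumor 3 the count was 53 higher, where 3.9% of all genes were. Without WT tumor 1, 2 or 3 it was 7, 18 and 9, where 4.38%, 2.63% and 2.96% of all genes were. Without Tgm2-/- tumor 1 or 2 it was 5 in each fit, where 3.3% and 2.86% of all genes were. In the fit without Tgm2-/- tumor 1, 3 were lower, where 3.48% of all genes were lower. The mean log2 level of the 99 genes was 4.64, 5.74 and 5.38 in WT and 7.04, 7.24 and 4.52 in Tgm2-/- tumors. The highest 2 values were those of Tgm2-/- tumors 1 and 2 for 60 of the 99 (60.6%), against 5.86% of all genes tested. This was uneven between sublists. It held for 33 of 40 other axoneme genes and 14 of 25 genes of spokes, nexin link and central apparatus. It held for 5 of 11 assembly and docking genes, 4 of 10 other dynein chains and 4 of 13 regulators. Every Tgm2-/- value was above every WT value for 9 of the 98 tested and below for 0, where 5.18% and 5.33% of all genes were. Trp73, a regulator of the multiciliated cell, was at 0, 5.71 and 2.05 in WT and 90.8, 86.0 and 28.5 in Tgm2-/- tumors, with no overlap (log2 fold change 4.50, SE 0.89, adjusted p = 0.302 in limma). Ccno, which serves the multiplication of basal bodies, was at 3.76, 3.45 and 7.91 in WT and 74.7, 28.6 and 8.57 in Tgm2-/- tumors (log2 fold change 2.28, SE 0.88). Gmnc, the relative of Mcidas at the top of the program, went the other way in sign, at 8.51, 9.36 and 28.7 in WT and 12.2, 5.46 and 1.81 in Tgm2-/- tumors (log2 fold change -1.20, SE 0.85). It is named here after its values were seen.

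By sublist, at an unadjusted p below 0.05 in limma, the calls were all higher, and 3.4% of all genes were higher and 2.38% lower. Of the 12 tested regulators of multiciliogenesis, Trp73 and Ccno had such a p, and E2f4, the most abundant, had a log2 fold change of -0.16 (SE 0.17). Among 10 other dynein chains none had such a p, and Dnal4, the most abundant, had a log2 fold change of 0.09 (SE 0.21). Among 11 assembly and docking genes, Dnaaf3 (1.33, SE 0.38) and Odad2 (3.92, SE 1.15) had one, and Dnaaf5, the most abundant, was at 0.21 (SE 0.24). Dnaaf3 ran from 63.5 to 106 in WT and from 192 to 234 in Tgm2-/- tumors without overlap, Tgm2-/- tumor 3 included. Among 25 further genes of spokes, nexin link and central apparatus, Cfap221 (2.28, SE 0.76) and Cfap206 (3.91, SE 1.58) had one, and Rsph3b, the most abundant, was at 0.02 (SE 0.47). Among 40 further axoneme genes, Cfap58 (3.62, SE 0.92), Mns1 (1.35, SE 0.48), Cfap77 (2.31, SE 0.82), Cfap100 (2.27, SE 0.83) and Cfap161 (0.95, SE 0.40) had one, and the tubulin Tubb4b, the most abundant, was at 0.41 (SE 0.30).

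Genes of primary cilia and of transport along any cilium varied within a narrow range. Over 30 of them the median log2 fold change was 0.13 (-0.35 to 0.79). Their mean log2 level was 9.21, 9.40 and 9.47 in WT and 9.52, 9.53 and 9.39 in Tgm2-/- tumors, with Tgm2-/- tumors 1 and 2 again the highest by a small margin and WT tumor 1 and Tgm2-/- tumor 3 the lowest. Tgm2-/- tumors 1 and 2 held the highest 2 values for 4 of the 30 (13.3%), against 5.86% of all genes tested. Every Tgm2-/- value was above every WT value for 6 of the 30 and below for 1, where 5.18% and 5.33% of all genes were. Ift80, a transport particle gene, and Bbs9, a BBSome gene, had an unadjusted p below 0.05 in limma, with log2 fold changes of 0.59 (SE 0.21) and 0.79 (SE 0.27), where 3.4% of all genes were higher at that p. Kif3b, a motor of this transport and the most abundant of the list, was at 0.20 (SE 0.20). The difference between this list and the motile cilia genes was not tested.

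The bursa encloses the ovary and lies beside oviduct and fat, so markers of other cells were read beside the cilia genes. In the list of oviduct secretory markers, which includes Ovgp1, 9 of 12 genes had their highest value in WT tumor 3, and the mean log2 level was 5.05, 8.25 and 10.38 in WT and 9.07, 8.70 and 4.92 in Tgm2-/- tumors. The summed level of that list was 2782, 12233 and 37749 in WT and 46382, 62199 and 3637 in Tgm2-/- tumors, and 0 of its genes had an unadjusted p below 0.05 in limma, where 3.4% of all genes were higher and 2.38% lower. Without Ovgp1 the sums were 2598, 5681 and 28505 in WT and 9274, 6255 and 3546 in Tgm2-/- tumors, with WT tumor 3 the highest, so the order of the full sums came from Ovgp1. Pax8, a factor of reproductive tract epithelium, was at 40.9, 169 and 1905 in WT and 437, 380 and 122 in Tgm2-/- tumors. General epithelial genes had a mean log2 level of 7.90, 9.77 and 12.29 in WT and 9.97, 9.53 and 7.43 in Tgm2-/- tumors. All 15 had a log2 fold change below 0 (median -0.51), where 47.3% of all genes were above 0, and 13 had their highest value in WT tumor 3. In 3 of the 15 every Tgm2-/- value was below every WT value and in 0 above, where 5.33% and 5.18% of all genes were. Cldn4, a tight junction claudin, was at -3.66 (SE 0.80, adjusted p = 0.406 in limma) and Krt8, the most abundant, at -0.43 (SE 0.26). WT tumor 1 and Tgm2-/- tumor 3 were thus low in the ciliated, the secretory and the general epithelial lists alike, while WT tumor 3 was high in the last 2 and not in the first.

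Relative to the epithelial gene Epcam, which was at 90.5, 959 and 8047 in WT and 1307, 1063 and 201 in Tgm2-/- tumors, Foxj1 was at a ratio of 0.230, 0.238 and 0.0103 in WT and 0.869, 1.82 and 0.155 in Tgm2-/- tumors. Tgm2-/- tumors 1 and 2 remained the highest 2 on this ratio, and WT tumor 3 was the lowest. The ratio of Ovgp1 to Foxj1 was 8.85, 28.7 and 111 in WT and 32.7, 28.9 and 2.91 in Tgm2-/- tumors, so that WT tumor 2 and Tgm2-/- tumors 1 and 2 had similar ratios.

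Uterine epithelial markers had a mean log2 level of 3.52, 7.19 and 8.38 in WT and 6.89, 6.37 and 3.09 in Tgm2-/- tumors over 7 measured genes, and 0 had an unadjusted p below 0.05 in limma, where 3.4% of all genes were higher and 2.38% lower. Ltf, lactoferrin and the most abundant of them, was at 227, 3967 and 52176 in WT and 3718, 3910 and 31.6 in Tgm2-/- tumors, and Hoxa11, a homeobox gene of the uterus, was at 0, 397 and 232 in WT and 116, 15.8 and 0 in Tgm2-/- tumors. Ovarian surface and mesothelial genes were level, with mean log2 values between 10.95 and 11.49, and among them Upk1b (-0.93, SE 0.28) and Rspo1 (0.84, SE 0.31) had an unadjusted p below 0.05, while C3, the most abundant, was at -0.17 (SE 0.42). Oocyte genes had a mean log2 level of 7.64 in Tgm2-/- tumor 1 and at most 3.98 in the other 5, with Zp2, a gene of the egg coat and the most abundant of them, at 596 in that tumor and at most 13.3 elsewhere. Oosp1 was the one oocyte gene with an unadjusted p below 0.05 (log2 fold change 4.28, SE 0.94). Granulosa and steroid cell genes had a mean log2 level of 11.15 in the same tumor and of 6.74 to 8.89 in the others, with Star, the most abundant, at a log2 fold change of -0.01 (SE 0.30).

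Fat markers differed from the cilia genes in including Tgm2-/- tumor 3 among the high tumors. The white adipocyte list had a mean log2 level of 8.56, 9.34 and 8.41 in WT and 10.11, 11.76 and 10.48 in Tgm2-/- tumors and a median log2 fold change of 1.96, and 11 of 12 genes were higher at an unadjusted p below 0.05 in limma, where 3.4% of all genes were. Lep, the leptin gene, passed the limits (3.74, SE 0.47, adjusted p = 0.0393), Plin4, Plin1, Cidec and Pparg had the next lowest p, and Cfd, adipsin and the most abundant, was at 1.65 (SE 0.72). The leukocyte list had a median of 0.58, with Cd79a, a B cell receptor chain, past the limits (3.01, SE 0.34, adjusted p = 0.0264 in limma), Cd52 at 1.23 (SE 0.31) and Laptm5, the most abundant, at 0.55 (SE 0.34). The fibroblast and endothelial list had a median of 0.65, with Lum (0.82, SE 0.32), Pdgfra (0.70, SE 0.28) and Cdh5 (0.75, SE 0.31) at an unadjusted p below 0.05 and Col3a1, the most abundant, at 0.57 (SE 0.53). The part that RNA of tract epithelium, ovary or fat has in the cilia values was not tested.

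**Figure D5:**
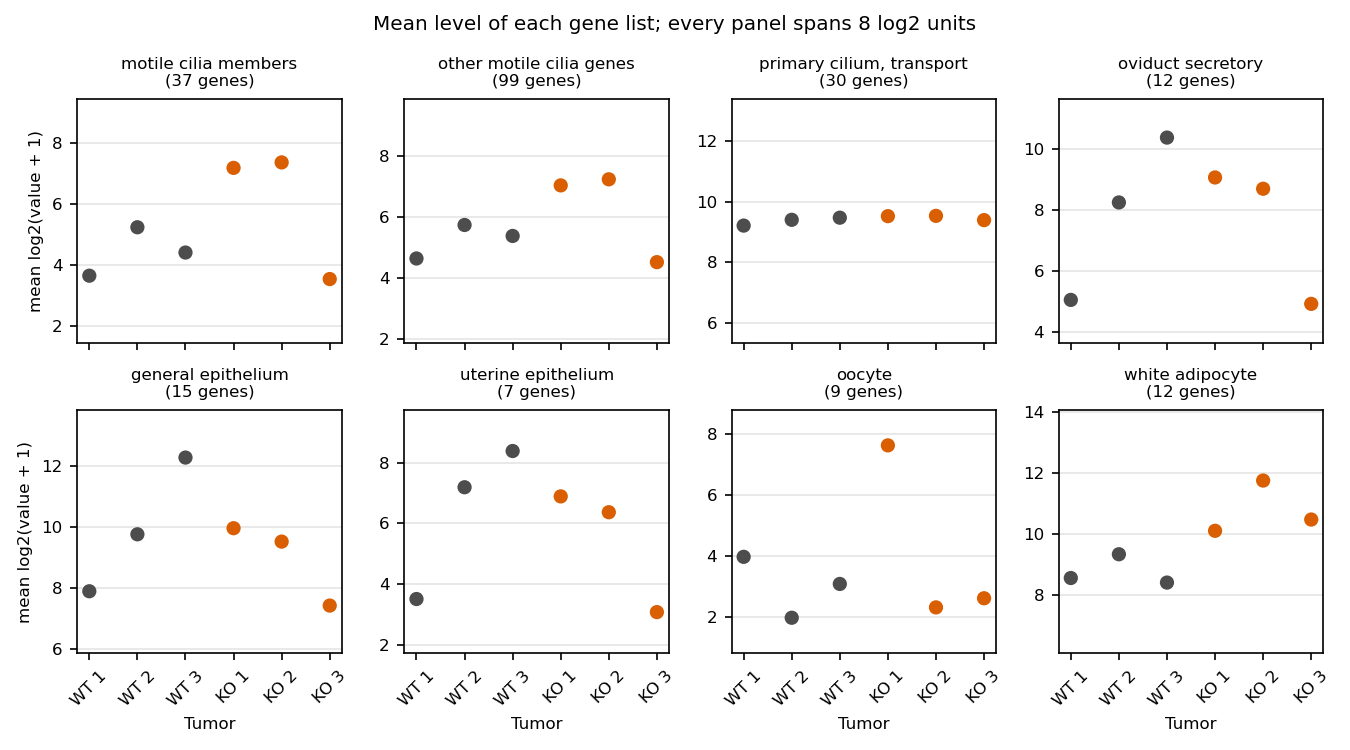
Points give the mean log2(value + 1) of 8 gene lists in each tumor, WT in grey and Tgm2-/- in orange, and every panel spans the same number of log2 units. Both motile cilia panels peak in KO 1 and KO 2, the secretory, general and uterine epithelial panels peak in WT 3, oocyte genes peak in KO 1, and fat genes are highest in the 3 KO tumors.

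Promoters are shown because RFX factors bind many cilia genes near their start, so the letters of several members can be compared. RefSeq promoters of GRCm38.p6, which run from 250 bases before to 50 bases after each start site, were found for 30 of the 38 genes (entries were missing for Foxj1, Dnah3, Lrrc6, Rsph1, Rsph4a, Cfap54, Cfap65 and Tppp3). The RFX half-site GTTGCC, on either strand, was in 14 of the 30 (46.7%), in 39 of 82 other motile cilia genes (47.6%) and in 14.1% of all 27025 genes with a promoter entry. The full X-box GTTNCCNNGGNAAC, which can hold that half-site, was in 1 of the 30, Pifo, and in 0.529% of all genes. The forkhead letters TGTTTAC, on either strand, were in Cfap43 and Ak7 (6.67%) and in 4.05% of all genes. Such a match is a description of letters and no evidence of binding. Below are 60 bases around the half-site nearest the start for the 6 genes with a half-site whose values ranged most between tumors, 5′ to 3′ on the strand of the gene, with the half-site or its reverse complement in capitals.
Pifo (chr3:106001477-106001536, minus strand): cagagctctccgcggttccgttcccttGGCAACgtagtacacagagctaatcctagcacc
Spag16 (chr1:69826840-69826899, plus strand): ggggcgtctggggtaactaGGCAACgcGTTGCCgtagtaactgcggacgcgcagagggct
Cfap44 (chr16:44394753-44394812, plus strand): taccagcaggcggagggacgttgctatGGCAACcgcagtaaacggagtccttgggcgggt
Tekt1 (chr11:72361865-72361924, minus strand): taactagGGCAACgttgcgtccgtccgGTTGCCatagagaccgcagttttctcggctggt
Ccdc113 (chr8:95534067-95534126, plus strand): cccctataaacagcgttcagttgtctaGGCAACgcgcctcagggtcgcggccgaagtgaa
Hydin (chr8:110266937-110266996, plus strand): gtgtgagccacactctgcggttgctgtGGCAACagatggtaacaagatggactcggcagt

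Counted on the gene's strand, with negative numbers before the start site, the half-site begins at -12 in Pifo, -103 in Spag16, -19 in Cfap44, -15 in Tekt1, -6 in Ccdc113 and -13 in Hydin. Spag16 and Tekt1 hold it in both directions within the 60 bases. Rfx3 itself, the one RFX gene among the members, ranged from 184 to 433 over the 6 tumors, with the groups overlapping. Half-sites were also present in Tekt2 and Dnah10, whose log2 fold changes were -0.45 (SE 0.78) and 0.41 (SE 0.86), and in Mcidas, which was near 0. The remaining members with a half-site were Rfx3 (0.48, SE 0.35), Dnah7a (2.08, SE 1.02), Zmynd10 (0.87, SE 1.385), Drc1 (1.84, SE 1.17) and Tekt4 (2.18, SE 1.21). Whether a half-site goes with the change was not tested.

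Overlap with other genes limits some of these values. Exons of 14 members overlap exons of another gene on the opposite strand and those of 2, Cfap43 (with Itprip) and Ovgp1 (with Gm42890), overlap on the same strand. Among the former, Dnah3 overlaps Lyrm1, Dnah11 overlaps Cdca7l and Ccdc39 overlaps Ttc14. Of the 22 members with no exon overlap, 16 had their highest 2 values in Tgm2-/- tumors 1 and 2, where 5.86% of all genes tested did. The exceptions were Mcidas, Rfx3, Rsph1, Rsph9, Ak7 and Tppp3. Of the 16 members with an overlap, 13 had them there, and the exceptions were Dnah1, Dnah2 and Tekt2.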

How the data were processed

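PolyA-selected RNA of 6 primary tumors was sequenced, 3 from WT and 3 from Tgm2-/- hosts. Per the study's methods and the labels, the authors quantified transcripts with kallisto 0.46.2 on GRCm38, summed them to genes with biomaRt, removed genes of low expression and divided by DESeq2 size factors. The deposited values (signal) are these normalized counts. The table is named TPM, but its columns sum to over 32316613 and differ, so the values are not TPM, and no count model was run. By the low values of genes with 1 transcript, 1 read was worth 0.943 to 1.08 in these units, so the column sums are close to the reads per tumor.

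Genes at 1 or more in at least 3 tumors (19667 of 20076) were tested with limma 3.58.1 in R 4.3.3 on log2(value + 1), with a variance trend and Benjamini-Hochberg adjustment over all tested genes, two-sided. Limits were an adjusted p below 0.05 and an absolute log2 fold change above 1. On simulated data for this comparison (19667 genes, 200 changed by a log2 fold change of 4), 80.5% were recovered and 8 other genes were called. The changed genes were drawn from the whole table, where the median log2 range between tumors was 1.25. Members had a median range of 5.24 and a median log2 fold change of 1.60. The 80.5% therefore does not tell how many members with a real change would pass. The members, the gene lists and the tests were chosen with earlier results of these data known. Named were every member, Tgm2, and of each other list the most abundant gene and those with an unadjusted p below 0.05 (at most 5). Also named were Gmnc, chosen after its values were seen, and cell type markers that the text gives by value. Positions come from GENCODE M21 (GRCm38). Alternatives were other pseudocounts, filters, scalings, a replicate block, tumor weights, no variance trend and leaving out each tumor.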

Additional observations from a re-analysis of the deposited data

How the results depend on the processing

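Of 565 fold changes of members under 15 alternatives, 551 kept their direction and side of the limits, 13 reversed and 1 (Dnah5 without Tgm2-/- tumor 3) passed the limits. All 38 members had an adjusted p of at least 0.68 in the main fit in limma, far from the limits. Changes in size do not enter this count, so it does not measure how stable the fold changes were. Replicate numbers did not pair the tumors (r of deviations -0.196, 0.284 and -0.307). With the replicate block, 5 of all genes passed the limits in limma, 4 members and 18 other motile cilia genes had an unadjusted p below 0.05 and were higher (3.56% of all genes), and the median of members stayed at 1.60. Without a variance trend 4 of all genes passed. The unadjusted count of members was 2 with a pseudocount of 5, 0 of 33 tested with a minimum of 10, and 5 with quantile normalization, where 4 members had every Tgm2-/- value above WT (all genes in these fits 3.35%, 3.48% and 3.52% at that p, and 5.15% above with quantile normalization). Leaving out 1 tumor gave 2 to 15 of all genes past the limits (2 without WT tumor 2) and 0 to 1 members past them. At an unadjusted p below 0.05, 1 to 26 members were higher, where 2.63% to 4.38% of all genes were. Members without overlap numbered 1 to 30, where 8.91% to 11.9% of all genes were above and 7.74% to 13.1% below. The median of members was 0.96 to 2.97. For other motile cilia genes, leaving out 1 tumor gave 5 to 53 higher at that p, beside the same 2.63% to 4.38% of all genes. It gave 0 to 3 of them lower (3 without Tgm2-/- tumor 1, where 3.48% of all genes were lower). Leaving out 1 tumor reversed the log2 fold change of 9 members. Its range was -0.33 to 1.31 for Mcidas, -0.09 to 2.52 for Zmynd10, -0.24 to 3.27 for Tekt1 and -0.01 to 0.65 for Tppp3, each reversed without Tgm2-/- tumor 2. It was -0.25 to 1.31 for Dnah10 (reversed without Tgm2-/- tumor 1), -0.91 to 2.21 for Ccdc39 (without Tgm2-/- tumor 1 or 2 or WT tumor 1), -0.43 to 4.35 for Ovgp1 (without Tgm2-/- tumor 2 or WT tumor 1), -0.74 to 0.56 for Rsph9 (without Tgm2-/- tumor 3 or WT tumor 3) and -1.04 to 0.20 for Tekt2 (without Tgm2-/- tumor 3). The cause was not tested. Members below 10 in most tumors rest on few reads.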
